A study of Mus musculus with 86 samples.

Results

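The 7 genes described here carry the signal by which the kidney mesenchyme makes the ureteric bud branch: Gdnf, Itga8, Gfra1, Ret, Etv4, Etv5 and Spry1. They were chosen by name, and all 7 are among the 12360 genes of the main expression table. The cells came from wild type metanephric kidneys of a mixed strain background, taken at 12.5 days post coitum (Theiler stage 20), with both sexes pooled. Kidneys were pooled before dissociation and 86 single cells were profiled, so all cells are 1 sample, no cell is a replicate of another, and no test between classes of cells was possible. A cell was called a bud cell at a Mal2 RPKM of at least 100, a Six2 cell if it was not a bud cell and had a Six2 RPKM of at least 1, and a remaining cell otherwise. RPKM scales reads by gene length and by the mapped reads of the cell. It does not correct for how well each gene was captured and amplified, so levels of different genes compare only roughly. This gave 7 bud cells, 46 Six2 cells and 33 remaining cells.

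Gdnf is a secreted growth factor of the metanephric mesenchyme. It binds the membrane-anchored co-receptor Gfra1, and the pair activates the receptor tyrosine kinase Ret on the ureteric bud, which then grows out and branches. Etv4 and Etv5 are transcription factors of the ETS family that Ret signalling switches on, and Spry1 is an intracellular inhibitor of receptor tyrosine kinases that restrains the response. Itga8 is the alpha chain of an integrin on mesenchymal cells, which binds nephronectin (Npnt) from the bud and is needed for normal Gdnf expression. Loss of Gdnf, Ret or Gfra1 in mice stops most kidneys from forming.

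Bud cells were parted from the others by Mal2. The lowest Mal2 value of a bud cell was 1219 RPKM, and the highest of any other cell was 3.41. The 9 bud markers in the table, such as Cdh1, Epcam and Calb1, were detected in a median of 9 per bud cell, 1 per Six2 cell and 0 per remaining cell. Of 8 further progenitor markers, a median of 6 were detected in Six2 cells, 4 in bud cells and 2 in remaining cells. Of 7 markers of induced nephron cells, medians were 3 in bud cells and 1 in each other class. Of 12 stroma markers, a median of 9 were detected in remaining cells, 6.5 in Six2 cells and 3 in bud cells. The classes are not pure, since 3 of the 7 bud cells had a Six2 RPKM of at least 1 and 31 of the 46 Six2 cells also detected the stroma gene Foxd1. Markers of endothelium were in the table for 1 of 6 genes, and none of 5 blood and macrophage markers was in it.

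Depth was close between the classes. The low values of a gene are mostly whole multiples of 1 smallest value, which gave the relative depth of each cell and the RPKM that 1 read is worth. Relative to the median cell, the median depth was 1.05 in bud cells, 1.01 in Six2 cells and 0.98 in remaining cells, while single cells ranged from 0.152 to 3.07. Detected genes had medians of 6488, 6256 and 6087. For Ret, 3 reads were worth between 0.165 and 0.296 RPKM in the bud cells, so a Ret RPKM of 1 lay above that floor in each of them.

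Ligand, co-receptor and receptor had 3 different distributions over the cells. Gdnf, the ligand, was held by Six2 cells and remaining cells to a like extent and was near 0 in bud cells. Gfra1 was highest in bud cells, intermediate in Six2 cells and low in remaining cells. Ret was detected in bud cells and in no other cell. The response genes Etv4, Etv5 and Spry1 were found in every class.

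**Figure D1:**
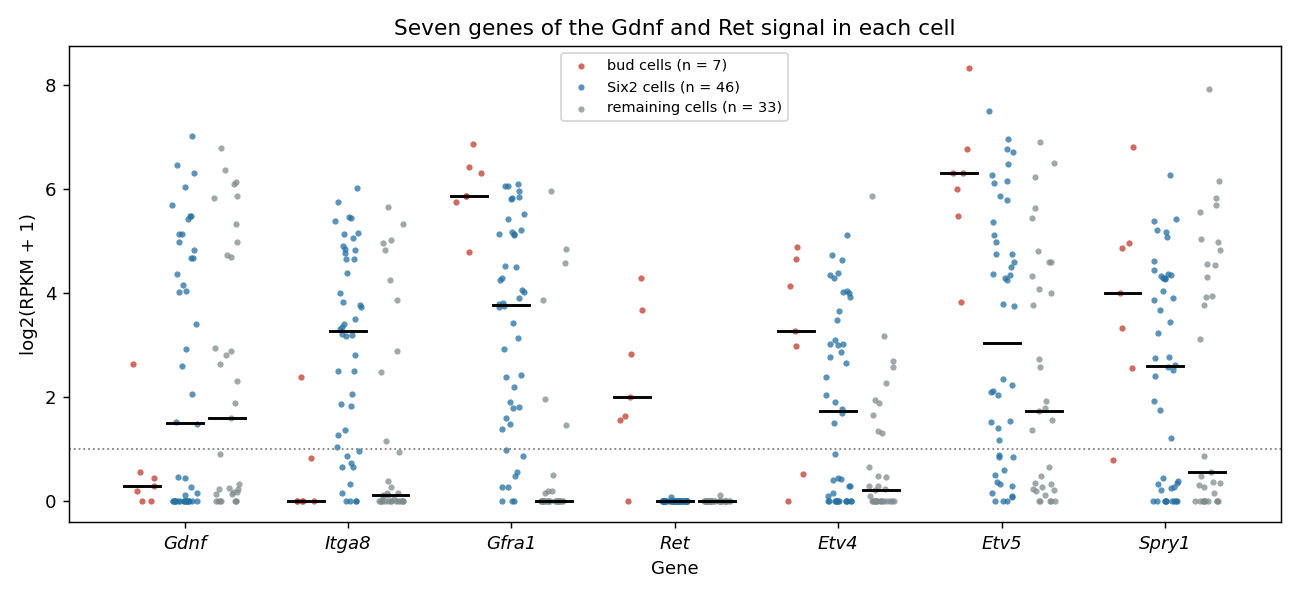
Level of each of the 7 genes in each cell as log2(RPKM + 1), by class (7 bud cells, 46 Six2 cells, 33 remaining cells). Each point is a cell, the black bar is the class median and the dotted line is an RPKM of 1. Ret points lie above the line in 6 bud cells and in no other cell, while Gdnf points lie above it in 24 Six2 cells and 17 remaining cells.

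Gdnf (gene 14573, chromosome 15, 7761011 to 7787575, mm9) was detected, here meaning an RPKM of at least 1, in 24 of 46 Six2 cells (52.2%, 95% Clopper-Pearson interval 36.9 to 67.1%) and in 17 of 33 remaining cells (51.5%, 33.5 to 69.2%). All intervals here cover counting error only, since the reads are amplified and carry no molecular identifiers. The level of Gdnf ran from 0 to 127 RPKM in Six2 cells with a median of 1.82, and from 0 to 109 RPKM in remaining cells with a median of 2.01. Its mean was 17.5 RPKM (SD 27.6 over 46 cells) in Six2 cells and 17.9 RPKM (SD 29.1 over 33 cells) in remaining cells. Both classes thus overlap over nearly their whole range. Among cells that detected Gdnf, the median level was 25.9 RPKM in Six2 cells and 25.3 RPKM in remaining cells.

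In bud cells, 5 of 7 values of Gdnf lay between 0.135 and 5.20 RPKM and the other 2 were listed at 0. Cell 20 alone reached the limit of detection, at 5.20 RPKM or 31 reads, and the other 6 bud cells held between 0 and 3.86 reads. Cell 20 also had high values for some stroma genes. Meis1 was at 132 RPKM, Pdgfra at 68.7 and Pdgfrb at 17.3, against means of 13.1, 0.0410 and 0.0347 RPKM in the other 6. Of those 6, 4 detected Meis1 and 0 detected Pdgfra or Pdgfrb. Other such genes were lower in cell 20, with Col1a2 at 10.5 RPKM, Col3a1 at 2.43 and Foxd1 at 2.15. Foxd1 had a mean of 1.22 RPKM in the other 6, of which 2 detected it. The mural gene Rgs5 was at 0.326 RPKM in cell 20, below the mean of 10.2 in the other 6. The part of these markers in its Gdnf value was not tested.

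Foxd1, a transcription factor of the renal stroma, did not part cells with Gdnf from cells without it. Of the cells that were not bud cells, Gdnf was detected in 9 of 15 with Six2 alone (60.0%, 32.3 to 83.7%), in 15 of 31 with Six2 and Foxd1 (48.4%, 30.2 to 66.9%), in 13 of 25 with Foxd1 alone (52%, 31.3 to 72.2%) and in 4 of 8 with neither. Mean Gdnf was 18.5 RPKM (SD 25.9) with Six2 alone and 20.0 RPKM (SD 31.6) with Foxd1 alone. The order of the 4 groups is therefore within their spread. Of the 17 remaining cells that detected Gdnf, 13 detected Foxd1, 16 detected Meis1 and 13 detected the fibrillar collagen gene Col3a1. Of the 16 remaining cells without Gdnf, these counts were 12, 16 and 13. Pdgfrb, a receptor of stromal and mural cells that was singled out after its values were seen, was detected in 14 of the 17 and in 5 of the 16. Cited1, Pax8, Wnt4 or Lhx1, genes of the nephron lineage, were detected in 4 of the 17 and 8 of the 16. Detected genes had a median of 6259 in the 17 cells and 5643.5 in the 16.

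Within Six2 cells, Gdnf was detected in 17 of 29 cells with Cited1 (58.6%, 38.9 to 76.5%), a gene of uninduced progenitors, and in 7 of 17 without it (41.2%, 18.4 to 67.1%). Its means were 22.0 RPKM (SD 31.7) and 9.84 RPKM (SD 16.7). By the induction genes Wnt4, Lhx1 and Pax8, Gdnf was detected in 11 of 20 Six2 cells with any of them and in 13 of 26 with none, with means of 15.3 RPKM (SD 25.7) and 19.2 RPKM (SD 29.3). These ranges overlap, and no test of the difference was made.

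**Figure D2:**
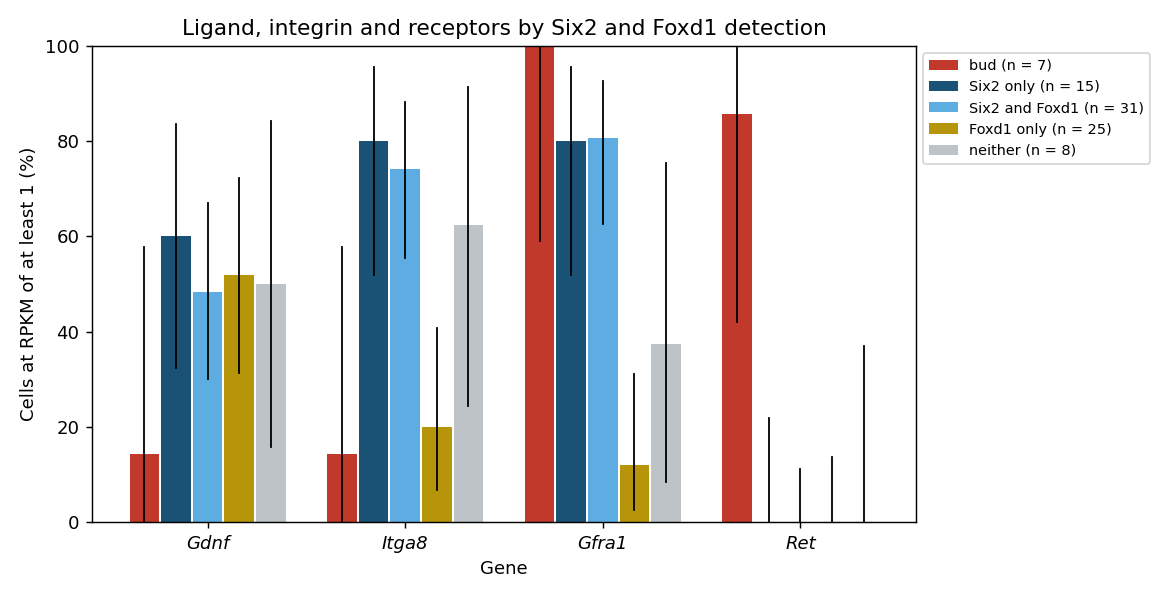
Share of cells (%) with an RPKM of at least 1 for Gdnf, Itga8, Gfra1 and Ret in bud cells and in the other cells split by Six2 and Foxd1 detection. Bars start at 0 and black lines are exact 95% intervals for counting error. Gdnf stands between 48.4% and 60.0% in the 4 groups outside the bud, while Gfra1 stands at 12% with Foxd1 alone and at 80.0% with Six2 alone.

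Itga8 (gene 241226, chromosome 2, 12028287 to 12223547, mm9) went with Six2. It was detected in 35 of 46 Six2 cells (76.1%, 61.2 to 87.4%), in 10 of 33 remaining cells (30.3%, 15.6 to 48.7%) and in 1 of 7 bud cells. Its level in Six2 cells ran from 0 to 63.1 RPKM with a median of 8.56, and in remaining cells from 0 to 49.2 RPKM with a median of 0.0772. The ranges overlap. The intervals of the shares do not, but they cover counting error in cells of 1 pool and are no test between classes. Itga8 was detected in 12 of 15 cells with Six2 alone and 23 of 31 with Six2 and Foxd1, against 5 of 25 with Foxd1 alone (20.0%, 6.83 to 40.7%). It was also detected in 5 of the 8 cells with neither gene, at a mean of 17.9 RPKM (SD 19.6). The bud cell with Itga8 was cell 47, at 4.19 RPKM, which also had a Six2 RPKM of 12.1.

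Gfra1 (gene 14585, chromosome 19, 58311182 to 58529849, mm9) was detected in all 7 bud cells, in 37 of 46 Six2 cells (80.4%, 66.1 to 90.6%) and in 6 of 33 remaining cells (18.2%, 6.98 to 35.5%). In bud cells it ran from 26.4 to 114 RPKM with a median of 57.3 and a mean of 67.1 RPKM (SD 27.9). In Six2 cells it ran from 0 to 66.9 RPKM with a median of 12.5, and in remaining cells from 0 to 60.7 RPKM with a median of 0. The lowest bud cell lay above the median Six2 cell, and 27 of 33 remaining cells lay below an RPKM of 1. The mean was 19.8 RPKM (SD 21.5) in Six2 cells and 3.94 RPKM (SD 12.1) in remaining cells. Co-receptor without receptor was common: 37 Six2 cells, 6 remaining cells and 1 bud cell held Gfra1 and no Ret. Foxd1 made no visible difference to Gfra1 among Six2 cells, with 12 of 15 cells without it and 25 of 31 with it, while 3 of 25 cells with Foxd1 alone had Gfra1 (12%, 2.55 to 31.2%). Of the 6 remaining cells with Gfra1, 3 detected any of Cited1, Pax8, Wnt4 and Lhx1, against 9 of the 27 others.

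Outside the bud, Gfra1 and Itga8 were detected more often in Six2 cells than in cells with Foxd1 alone, and Gdnf was not parted in this way. The 250 bases before the RefSeq start sites of these genes are shown so that this contrast can be read beside their sequence. RefSeq promoter entries (GRCm38.p6) were matched by gene symbol for 5 of the 7 genes, and no entry was matched for Ret and Etv4. Sequences run 5′ to 3′ on the strand of the gene. Capitals mark TCAGGTT, the first letters of an element bound by Six2, searched on both strands.
Gfra1, chr19:58455399-58455648, minus strand: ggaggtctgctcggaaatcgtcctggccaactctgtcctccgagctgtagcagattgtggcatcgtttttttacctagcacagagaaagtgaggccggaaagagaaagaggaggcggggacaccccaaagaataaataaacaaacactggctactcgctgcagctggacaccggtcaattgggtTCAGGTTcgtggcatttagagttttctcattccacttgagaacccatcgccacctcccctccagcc
Itga8, chr2:12301945-12302194, minus strand: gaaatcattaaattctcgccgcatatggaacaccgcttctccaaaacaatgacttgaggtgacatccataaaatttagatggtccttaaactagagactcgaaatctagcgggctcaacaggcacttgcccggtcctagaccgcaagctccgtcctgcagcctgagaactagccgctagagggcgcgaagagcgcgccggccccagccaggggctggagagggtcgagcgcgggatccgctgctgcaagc
Gdnf, first start, chr15:7809798-7810047, plus strand: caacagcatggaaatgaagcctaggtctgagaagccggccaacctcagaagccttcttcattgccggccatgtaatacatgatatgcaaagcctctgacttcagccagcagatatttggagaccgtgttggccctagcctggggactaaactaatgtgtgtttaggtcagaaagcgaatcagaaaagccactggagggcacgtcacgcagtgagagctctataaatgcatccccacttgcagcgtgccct
Gdnf, second start, chr15:7813477-7813726, plus strand: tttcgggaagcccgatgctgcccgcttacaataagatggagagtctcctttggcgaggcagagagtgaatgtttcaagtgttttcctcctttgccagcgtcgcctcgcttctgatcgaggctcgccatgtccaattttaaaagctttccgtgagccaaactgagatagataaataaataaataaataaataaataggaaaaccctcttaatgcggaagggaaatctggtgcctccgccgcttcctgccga
TCAGGTT occurs 1 time in the Gfra1 stretch, beginning 66 bases before the start, and not in the other 3. Of 32851 such stretches over all RefSeq entries, 1147 (3.49%) hold it on either strand. The match is a description of letters and not of a binding site. CG pairs numbered 10 in the Gfra1 stretch, 18 in that of Itga8, and 7 and 14 in those of Gdnf. An ETS motif, CCGGAAG, was searched in the same way, does not overlap TCAGGTT, and occurs in none of the stretches of the 5 genes, Etv5 and Spry1 included, while 6.91% of all stretches hold it.

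Ret (gene 19713, chromosome 6, 118101766 to 118147762, mm9) was detected in 6 of 7 bud cells (85.7%, 42.1 to 99.6%) and in 0 of 79 other cells, where 3 counts of the total allow a share of up to 3.80% and the Clopper-Pearson interval ends at 4.56%. Its values in the bud cells were 18.4 RPKM in cell 74, 11.7 in cell 47, 6.10 in cell 20, 2.96 in cell 18, 2.09 in cell 3, 1.92 in cell 57 and 0 in cell 53. In reads these are about 299, 212, 76, 29.9, 23.7, 34 and 0. Outside the bud, cells 5 and 14 each held 1 read, at 0.0807 and 0.0504 RPKM, and the other 77 cells held none. What 1 Ret read is worth rests on these 2 cells, and the multiples of it in cells 20, 47, 57 and 74 are whole numbers within 0.02.

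In RPKM, Ret was far lower than its co-receptor even where it was present. Its mean in bud cells was 6.16 RPKM (SD 6.62), below Gfra1 (67.1 RPKM) and Mal2 (1781 RPKM, SD 473). With 3 cells above an RPKM of 3, Ret just meets the smallest number of cells found for any gene in the table. These are bud cells 74, 47 and 20, so Ret is in the table only through the class where it is high. Cell 53, without a Ret read, had a Mal2 value of 1219 RPKM, a Gfra1 value of 52.5 and a relative depth of 1.05. Its Etv4 was listed at 0, its Etv5 was 77.2 RPKM and its Spry1 was 8.93 RPKM.

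Etv5 (gene 104156, chromosome 16, 22381386 to 22439643, mm9) was the highest of the response genes in the bud. It was detected in all 7 bud cells, from 13.1 to 320 RPKM with a median of 77.2. It was also detected in 32 of 46 Six2 cells (69.6%, 54.2 to 82.3%), up to 178 RPKM with a median of 8.22, and in 19 of 33 remaining cells (57.6%, 39.2 to 74.5%), up to 118 RPKM with a median of 2.29. The median bud cell was well above the other medians, but single Six2 and remaining cells reached the bud range.

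Etv4 (gene 18612, chromosome 11, 101631056 to 101646624, mm9) had lower levels than Etv5. It was detected in 5 of 7 bud cells (71.4%, 29.0 to 96.3%), 25 of 46 Six2 cells (54.3%, 39.0 to 69.1%) and 10 of 33 remaining cells (30.3%, 15.6 to 48.7%). Medians were 8.58, 2.30 and 0.159 RPKM, with highest values of 28.4, 33.6 and 56.6 RPKM. The highest value of all was in remaining cell 37 and not in the bud.

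Spry1 (gene 24063, chromosome 3, 37538869 to 37543521, mm9) was detected in 6 of 7 bud cells, 29 of 46 Six2 cells (63.0%, 47.5 to 76.8%) and 15 of 33 remaining cells (45.5%, 28.1 to 63.6%). Medians were 14.9, 5.01 and 0.474 RPKM. The highest cell of each class was at 110, 75.7 and 239 RPKM, so the range was widest among remaining cells. Among cells that detected it, the median was 21.5 RPKM in bud cells, 15.4 RPKM in Six2 cells and 27.3 RPKM in remaining cells.

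**Figure D3:**
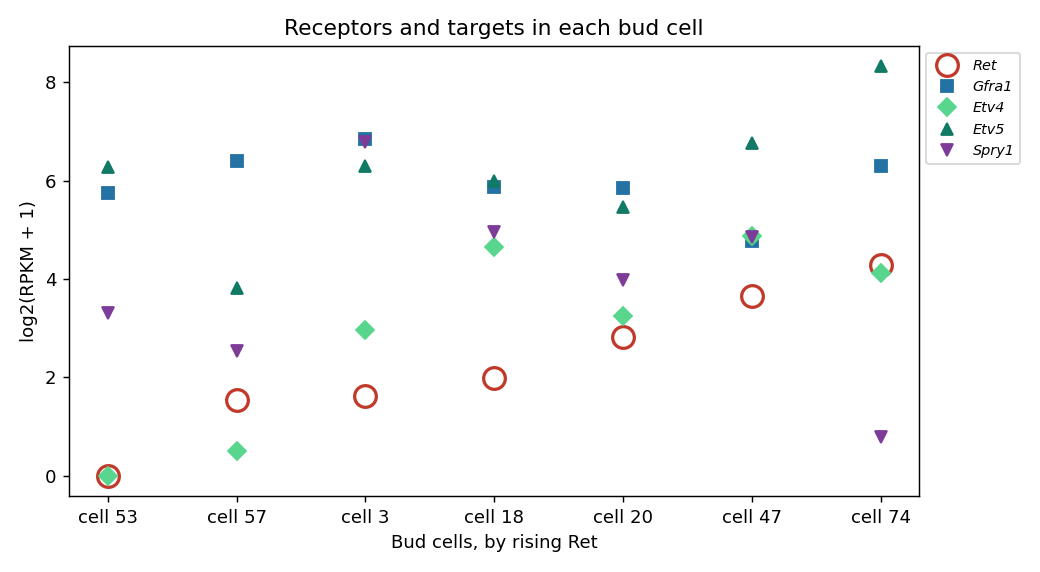
Ret, Gfra1, Etv4, Etv5 and Spry1 in each of the 7 bud cells as log2(RPKM + 1), with cells ordered by Ret. Each marker is 1 gene in 1 cell. Cell 74 has the highest Ret and Etv5 and the lowest Spry1, and cells 53 and 57, at the low end of Ret, have the lowest Etv4.

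The response genes did not move as a block among the bud cells. Cell 74 held the most Ret (18.4 RPKM) and the most Etv5 (320 RPKM), yet its Spry1 was 0.726 RPKM, or 4 reads. Cell 3 held the most Spry1 (110 RPKM) and the most Gfra1 (114 RPKM) with a Ret value of 2.09 RPKM. Etv4 was highest in cell 47 (28.4 RPKM) and was 0 and 0.416 RPKM in cells 53 and 57, which had the lowest 2 values of Ret. Wnt11, a secreted factor of bud tips and a target of Ret signalling, was at 25.6 RPKM in cell 3, 11.3 in cell 74, 11.3 in cell 47 and 7.44 in cell 18, and at 0 in cells 20, 53 and 57. Cell 57 also had a Six2 value of 50.4 RPKM and a Pax8 value of 32.8 RPKM, and it had the lowest Etv5 of the class (13.1 RPKM). With 7 cells of 1 pool these orders are a description.

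Differences between classes were set against all genes as a log2 ratio of (mean RPKM + 1). For bud cells over all other cells, 9.62% of the 12360 genes had a log2 ratio of at least 1 and 21.9% had one of -1 or less. Of the 7 genes 4 were on the higher side: Ret (2.84), Gfra1 (2.27), Etv5 (2.10) and Etv4 (1.18). Since Ret is in the table only through bud cells, its place among all genes is no separate evidence. Gdnf (-3.29) and Itga8 (-2.84) were on the lower side, and Spry1 stood at 0.85. With 7 bud cells, single cells carry some of these values. Etv5 was at 1.45 without cell 74 and Etv4 at 0.85 without cell 47, below the limit. With the 3 bud cells that detect Six2 left out, Etv4 stood at 0.64 and Spry1 at 1.10. Spry1 was at -0.05 without cell 3, at 1.14 without remaining cell 32, and at 1.49 as a difference of mean log2 values. Gdnf was at -3.97 without cell 20 and Itga8 at -3.44 without cell 47.

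For Six2 cells over remaining cells, 7.4% of all genes had a log2 ratio of at least 1 and 7.65% had one of -1 or less. Gfra1 stood at 2.07 and Itga8 at 1.00, the 2 of the 7 genes on the higher side, and none was on the lower side. With Six2 cells taken from a Six2 RPKM of 10, Gfra1 stood at 1.23, and without remaining cell 80 it stood at 2.71. Itga8 is at the limit, with values from 0.90 to 1.28 as single cells were left out. It stood at 0.49 with Six2 cells taken from that higher limit and at 1.67 as a difference of mean log2 values. Etv4 (0.93) and Etv5 (0.73) were below it, and Etv4 was at 1.79 without remaining cell 37. Gdnf stood at -0.03, within -0.24 to 0.20 as single cells were left out, and Spry1 at -0.76. Without remaining cell 32, which holds the highest Spry1 value, Spry1 was at -0.20, and as a difference of mean log2 values it was 0.09, so its direction is not settled.

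**Figure D4:**
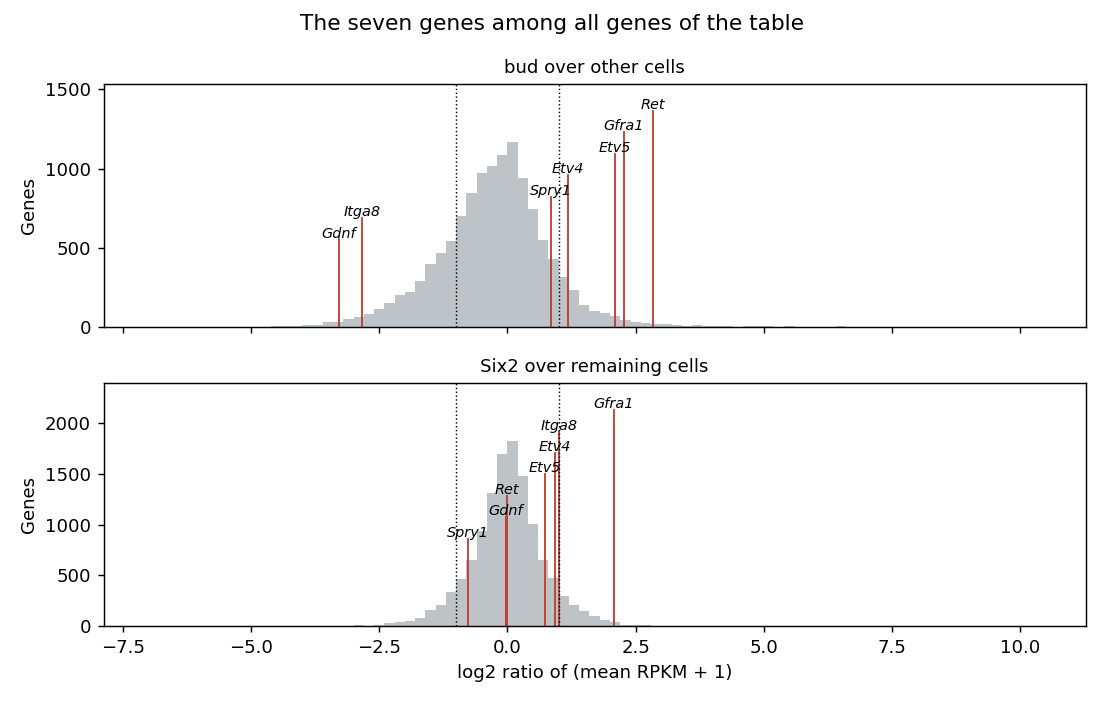
Log2 ratio of (mean RPKM + 1) for all 12360 genes (grey histograms, number of genes) with the 7 genes marked by red lines whose height has no meaning. The upper panel sets bud cells over other cells and the lower panel Six2 cells over remaining cells, and dotted lines mark a log2 ratio of 1 in size. Gdnf lies at -3.29 above and at -0.03 below, while Gfra1 lies beyond 2 in both panels.

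At an RPKM of at least 1, ligand and receptor shared 1 cell, whereas ligand and co-receptor often shared a cell. Gdnf and Ret were detected together in cell 20, out of 6 cells with Ret, while 48.8% of all 86 cells detected Gdnf. All 6 Ret cells are bud cells, and 1 of the 7 bud cells (14.3%) detected Gdnf. Within the bud class, the overlap is thus near the frequency of Gdnf. Ret cells 18, 47 and 57 held 1, 3 and 3.86 Gdnf reads, each below an RPKM of 1. Gfra1 was detected in each of the 6 Ret cells. Gdnf and Gfra1 were detected together in 20 Six2 cells, which is 83.3% of the 24 Gdnf cells and 54.1% of the 37 Gfra1 cells of that class. As 80.4% of all Six2 cells had Gfra1, the overlap is near what its frequency in the class gives. Among remaining cells, 5 of the 6 Gfra1 cells also detected Gdnf, and 5 of the 17 Gdnf cells detected Gfra1. Gdnf, Itga8 and Gfra1 were all detected in 17 Six2 cells, 2 remaining cells and 0 bud cells.

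**Figure D5:**
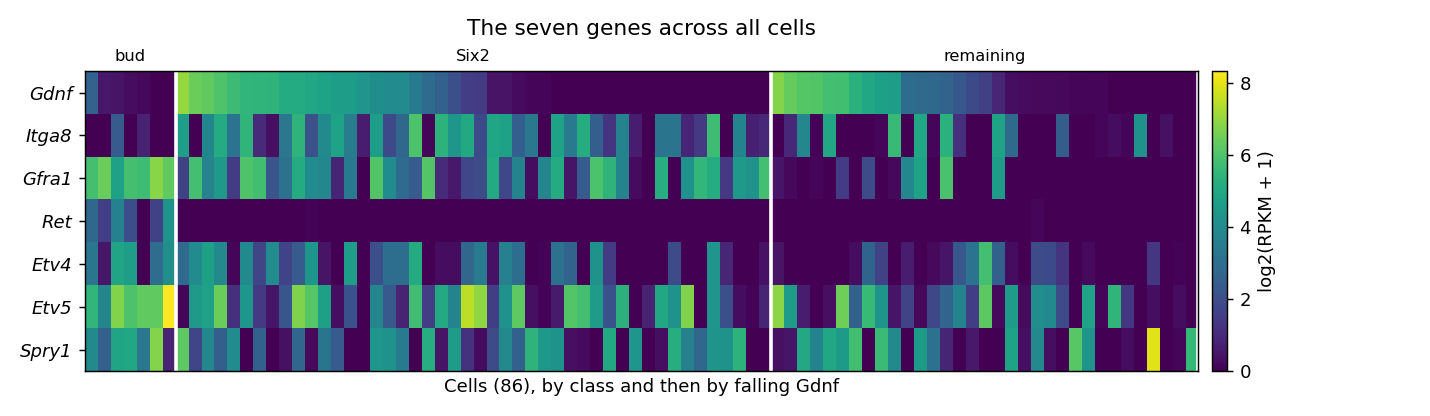
The 7 genes (rows) in all 86 cells (columns) as log2(RPKM + 1), by class and within it by falling Gdnf. White lines part 7 bud cells, 46 Six2 cells and 33 remaining cells. Ret is bright in the bud block alone, and Etv5 and Spry1 are bright in cells of every block.

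Outside the bud, Etv4 was found mostly in Six2 cells that also held Itga8 or Gfra1. Of 25 Six2 cells with Etv4, 23 detected Itga8 and 23 detected Gfra1. Etv4 was detected in 23 of the 35 Six2 cells with Itga8 (65.7%) and in 2 of the 11 without it (18.2%). For Gfra1 the same counts were 23 of 37 (62.2%) and 2 of 9 (22.2%), and for Gdnf 17 of 24 (70.8%) and 8 of 22 (36.4%). Etv5 ran alike with Itga8, in 28 of 35 cells (80.0%) against 4 of 11 (36.4%). Spry1 differed less, in 23 of 35 cells against 6 of 11. Six2 cells with Itga8 detected a median of 6473 genes and those without it 5979, at median relative depths of 1.01 and 0.98. Those with Gfra1 detected 6059 and those without it 6702, at depths of 1.03 and 0.76. The part of depth and gene number in the shared detection was not tested. Among remaining cells Etv4 was in 3 of 10 cells with Itga8 and in 7 of 23 without it, and Etv5 in 4 of 10 and 15 of 23.

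Over all 86 cells, Etv4 and Etv5 were each other's nearest gene. Likeness was taken as Pearson's r of log2(RPKM + 1) over the 86 cells, among 11901 genes detected in at least 5 cells. The cells share a pool and their classes, and depth differs between them, so r is a description. Etv4 and Etv5 had r = 0.47, or 0.42 over the 79 cells outside the bud, where Apex2 (0.42) led for Etv4 and Sobp (0.46) for Etv5, and 34 of the 40 Etv4 cells detected Etv5. Bmp7 (0.42), Spint2 (0.41), Hoxb5 (0.41) and Apex2 (0.40) followed for Etv4, and Ldha (0.45), Lsr (0.45), Spint2 (0.43) and Hoxd8 (0.43) for Etv5. Spry1 was not near them, at -0.10 with Etv4 and -0.13 with Etv5. Its nearest genes were Atad3a (0.42), Tmx3 (0.40), C80913 (0.40), Zfp961 (0.39) and Gnb2l1 (0.38), all weak.

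Ret was nearest to epithelial genes found in bud cells. Esrp1, an epithelial splicing factor, had r = 0.95 and was detected in 6 bud cells and no other cell. Tfap2a (0.91), the retinoic acid enzyme gene Aldh1a3 (0.90), the claudin gene Cldn4 (0.89) and Pkhd1 (0.88), whose human counterpart is mutated in recessive polycystic kidney disease, followed. These values rest on the 7 bud cells, since nearly all other cells are at 0 for both genes of each pair.

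Gfra1 was nearest to Moxd1 (r = 0.57), which was detected in 7 bud cells, 41 Six2 cells and 7 remaining cells. Ak1 (0.51), Hoxb6 (0.49), 5730469M10Rik (0.46) and Ctnnd2 (0.46) followed. Over the 79 cells outside the bud, Spock2 (0.57), Six2 itself (0.57) and Crym (0.56) came next after Moxd1 (0.61). Spock2 and Crym are among the progenitor markers used here, and Six2 set the classes. Itga8 was nearest to Ramp2 (0.49), Ism1 (0.47), Vcan (0.47), Meox2 (0.47) and Cirh1a (0.47). Gdnf was nearest to Rcsd1 (0.49), the receptor tyrosine kinase inhibitor Spry4 (0.46), Tcea1 (0.39), Fibin (0.39) and Gclc (0.38). Gdnf and Itga8 had r = 0.19. The integrin acts upstream of the ligand in the mouse, but r over cells of 1 pool does not measure that relation.

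The partners of these genes were read from lists of the pathway, of which 74 of 87 genes are in the table. Other ligands of the family (Nrtn, Artn, Pspn) and the co-receptors Gfra2 and Gfra4 are not among its genes, and Gfra3, named to complete the list, was detected in 1 bud cell, 7 Six2 cells and 7 remaining cells. Npnt, the bud ligand of the Itga8 integrin, was higher in bud cells, where Itga8 was lower. It was detected in 6 of 7 bud cells with a mean of 36.3 RPKM (SD 38.9), in 3 of 46 Six2 cells and in 1 of 33 remaining cells, a log2 ratio of 4.05 for bud over other cells. For Six2 over remaining cells, Npnt stood at 1.47, a ratio that rests on those 3 cells and 1 cell. The means were 2.07 RPKM (SD 10.9) and 0.106 RPKM (SD 0.567). The basement membrane genes Fras1, Frem1 and Frem2 act beside it. Frem2 was in all 7 bud cells at a mean of 35.9 RPKM (log2 ratio 3.87), Frem1 was lower there (-2.63, 0.942 RPKM), and Fras1 was lower in Six2 cells than in remaining cells (-1.34, 8.28 against 22.5 RPKM).

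Of 10 listed targets of Ret in the table, Etv4, Etv5 and Spry1 included, 7 were past a log2 ratio of 1 in bud cells and 1 was past -1, beside 9.62% and 21.9% of all genes. Their median log2 ratio was 1.65, and that of all genes was -0.21. Cxcr4, a chemokine receptor, was detected in all 7 bud cells at a mean of 13.7 RPKM (SD 13.4), a log2 ratio of 2.01. Dusp6, a phosphatase that switches off ERK, was at 202 RPKM (SD 81.6), a log2 ratio of 1.83, and Sox9 at 63.2 RPKM (SD 48.0), a ratio of 1.46. Mmp14, a membrane protease, went the other way at -1.29. For Six2 over remaining cells 1 of the 10 was higher, Cxcr4 at 1.10, and 1 was lower, which was Wnt11 at -1.25 with 1 of 46 against 4 of 33 cells and is named here after its values were seen. Their median was 0.24.

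Among 10 listed regulators of Ret, 3 were higher and 2 lower in bud cells, beside 9.62% and 21.9% of all genes, so the share that was lower is near that of all genes. The zinc finger factor Gata3 was at 156 RPKM (SD 42.9) in all 7 bud cells, with 0.921 RPKM in Six2 cells and 7.63 RPKM in remaining cells, a log2 ratio of 5.06. The homeobox gene Emx2 was in all 7 bud cells at 25.9 RPKM (SD 24.9), a ratio of 4.39. Aldh1a2, which makes the retinoic acid that sustains Ret expression, was highest in remaining cells at 304 RPKM (SD 285), with 137 RPKM (SD 176) in Six2 cells and 65.4 RPKM (SD 103) in bud cells. Pax8 had a lower mean in bud cells, with a log2 ratio of -1.19, but not a lower share of cells. It was detected in 3 of 7 bud cells, 17 of 46 Six2 cells and 8 of 33 remaining cells. Its means were 11.8 RPKM (SD 18.0), 23.5 RPKM (SD 46.2) and 34.5 RPKM (SD 93.9), so the difference is within the spread over cells.

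Of 14 genes that act on Gdnf in the mesenchyme, 6 were lower and 1 higher in bud cells, beside 21.9% and 9.62% of all genes. In the comparison of Six2 with remaining cells, where Gdnf itself differed by -0.03, 5 of the 14 were higher and 0 lower, beside 7.4% and 7.65% of all genes. Eya1, a transcriptional partner of Six2, was at 53.4 RPKM (SD 46.4) in Six2 cells and 11.2 RPKM (SD 29.1) in remaining cells, a log2 ratio of 2.16. Robo2, the receptor that limits the Gdnf domain, had a ratio of 2.08, its ligand Slit2 one of 1.51 and Osr1 one of 1.71. Eya1 and Osr1 are also among the progenitor markers used here to describe the Six2 cells. The count of 5 is thus not independent of the class, and its relation to Gdnf was not tested. Sall1 and Wt1 were detected in 46 and 45 of 46 Six2 cells and in 32 and 30 of 33 remaining cells. The forkhead genes Foxc1 (-2.52) and Foxc2 (-2.17) were lower in bud cells.

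Among the 7 feedback inhibitors 1 was higher, which was Dusp6, and 1 lower in bud cells, counts near the shares of all genes (9.62% and 21.9%). The median log2 ratio of these inhibitors was 0.64, above that of all genes (-0.21). Spry4 was lower in Six2 cells (10.3 RPKM, SD 16.1) than in remaining cells (24.9 RPKM, SD 36.3), with a log2 ratio of -1.19. Spry2, chosen after its values were seen, was in all 7 bud cells, 45 Six2 cells and 32 remaining cells. Of 16 adaptors and kinases downstream of Ret, 0 were higher and 4 were lower in bud cells, a share near the 21.9% of all genes that were lower. Their median was -0.26, near that of all genes (-0.21), with Mapk3 at -1.57 and Map2k1 at -1.10. Fgf10, a ligand that also turns on Etv4 and Etv5, was at 22.3 RPKM (SD 26.7) in Six2 cells, 5.77 RPKM (SD 13.0) in remaining cells and 4.17 RPKM (SD 6.98) in bud cells. Bmp4, which opposes Gdnf in branching, was detected in 2 bud cells, 15 Six2 cells and 6 remaining cells, and Bmp7 in 6, 26 and 5.

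None of the 7 genes is among the 450 genes of the authors' deposited table that compares cells named six2only with cells named six2andcited1. The main table has 12360 genes, so 7 genes taken from it would mostly be absent from so short a list. Their absence therefore says nothing on whether they differ with Cited1.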

How the data were processed

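Expression was measured in 86 single cells of 1 pool of kidneys, loaded on a Fluidigm C1 and sequenced on an Illumina HiSeq2500, per the labels' protocols. The deposited RPKM values, on a linear scale, were made by the authors. Per the submitters' processing notes TopHat 1.4.1, DESeq and mm9 were used, with no role given. The deposited counts of cells above an RPKM of 3 were matched to the values, and every gene has at least 3 such cells. The signed fold deposited by the authors in a second table, a score, was read only to look for the 7 genes.

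Members, lists and classes were chosen with earlier results of these data known. Detection is an RPKM of at least 1, ratios use a pseudocount of 1, and a log2 ratio of 1 in size was counted. Pathway genes were named where a class mean reached 10 RPKM and the ratio reached 1 in size, the 3 highest and 3 lowest per list, and 5 nearest genes per member. Relative depth is the commonest ratio of low values between cells, resting on at least 313 genes a cell, and 1 read is the commonest low value of a gene. For 64.3% of genes this value recurred in 3 or more cells, and 69.5% of their values under 20 reads were whole within 0.02. So reads are estimates, and counts were not modelled. Python 3.11.15 with numpy 2.4.6, pandas 2.3.3, scipy 1.17.1 and matplotlib 3.10.9 was used, and the calculations were tested on simulated data. No doublet caller was run; per the labels' protocols, capture sites were inspected by microscope.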

Additional observations from a re-analysis of the deposited data

Results flagged for a closer look

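Among the 7 bud cells, a single cell stood far above the rest for 4 of the 7 genes, by its gap to the next cell as a share of the whole range (Dixon's 95% critical value). That limit assumes normal values, of which about 1 in 20 groups would pass by chance. RPKM values over cells are skewed, so the share that passes by chance here is not known. Cell 20 had a Gdnf value of 5.20 RPKM, with the next bud cell at 0.456. Cell 47 had an Itga8 value of 4.19 RPKM, with the next at 0.761. Cell 74 had an Etv5 value of 320 RPKM, with the next at 107. Cell 3 had a Spry1 value of 110 RPKM, with the next at 30.0.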

How the results depend on the processing

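The shares and means of the 7 genes in the 3 classes and both log2 ratios were recomputed with other limits for Mal2 (10) and Six2 (10), other detection limits, a pseudocount of 0.1, the mean of log2 values, with the 3 bud cells that detect Six2 or the 5 cells of fewest genes left out. Values by Foxd1, Cited1 or induction genes and shared detection have no alternative. Reads, deep cells and leaving out each cell were added after seeing the data. Of the planned values 278 stayed within their interval or spread over cells and 16 did not, and of the added ones 69 did and 1 did not. Of the 278, 144 equal the reported value, as a Mal2 limit of 10 gives the same 7 bud cells, and the spread over single cells is a wide measure for ratios. Counting any value above 0 as detection raised Gdnf to 71.4% of bud and 78.8% of remaining cells, Itga8 to 91.3% of Six2 and 57.6% of remaining cells and Gfra1 to 93.5% of Six2 cells. It raised Etv4 to 71.7% of Six2 and 54.5% of remaining cells, Etv5 to 93.5% and 84.8%, and Spry1 to 78.3% and 69.7%, with 100% of bud cells, as also with 3 reads. With a limit of 3 RPKM, Etv4 was in 15.2% of remaining cells. Without the bud cells that detect Six2, Itga8 was in 0% of the other 4. For bud over other cells, Gfra1 stood at 3.74 with the mean of log2 values, and Ret at 5.95 with a pseudocount of 0.1. As means of log2 values Etv5 stood at 3.33, Gdnf at -1.77 and Itga8 at -1.81 there. In all these cases the change follows from the limit, scale or cells used, and ratios changed sign for Spry1 in bud cells (-0.05 without cell 3) and, in Six2 over remaining cells, for Spry1 (0.09) and Gdnf (0.06) as means of log2 values, for Gdnf with cell 24 left out (0.20) and for Ret, which is near 0. Without the 5 cells of fewest genes Itga8 stood at 0.85 there, and with a pseudocount of 0.1 Etv4 stood at 1.13. No paired analysis was possible because all cells are 1 group. In the shallowest cells 3 reads of Spry1 are worth up to 3.93 RPKM, so a value under 1 there is not an absence.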
